A study of Homo sapiens with 33 samples.

Results

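SCC6 is an established HNSCC (head and neck squamous cell carcinoma) cell line. The libraries described here are its bulk RNA-seq profiles under daily cetuximab at 100 nM, and they are 5 of the 33 libraries of a series that followed 3 cell lines for 5 days. The question was which genes moved after the first days of drug. The libraries of days 3, 4 and 5 (3 libraries, 1 per day) were therefore set against the 2 libraries that the sample titles place on day 2. No cetuximab library of SCC6 carries the label day 1, so the true day of these 2 is uncertain. They are called 2a and 2b in the order of the table, and early as a pair. The comparison group was SCC6 given PBS, the vehicle, with 1 library for each day from 0 to 5. SCC6 is 1 cell line with 1 library per day and treatment, apart from the early pair, and the sources do not say that the libraries came from separate cultures. The p-values therefore measure only the spread between these libraries, which may be technical.

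Cetuximab is an antibody that binds the extracellular part of EGFR, the receptor of EGF, TGF-alpha, amphiregulin (AREG), epiregulin (EREG) and related ligands. An active EGFR signals through RAS, RAF, MEK and ERK to immediate early genes such as EGR1, and on to cell cycle entry. In squamous carcinoma cells many EGFR ligands are themselves targets of that signalling, so that ligand and receptor form a loop.

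The column names of the table carry the sequencing flow cell and lane, and these split the libraries. Both early libraries and day 3 were sequenced in the same lane of 1 flow cell, whereas days 4 and 5 were together on another, so that days 4 and 5 cannot be told apart from their flow cell. Total estimated counts were 43874073 for 2a, 33726089 for 2b, 43490517 for day 3, 80727478 for day 4 and 75170052 for day 5, and those of PBS ranged from 28508758 to 40302162. The level of a gene also depended on the GC content of its exons in a way that followed the flow cell. The slope was -0.019 in 2a, -0.141 in 2b and -0.029 on day 3 on the log2 scale per 10% GC, but 0.372 on day 4 and 0.217 on day 5. With PBS it was 0.277 on day 0, 0.283 on day 1 and between -0.234 and -0.13 on days 2 to 5. The group medians given below for PBS, for days 3 to 5 against days 1 and 2, were taken without removal of this trend. Across genes, the log2 level of day 3 had a Pearson correlation of 0.993 with 2a and of 0.977 with 2b, and 2a and 2b one of 0.990. Keratin 17, TP63, EPCAM and CDH1 marked all 5 libraries as epithelial. KRT17 was at 752 to 1769 CPM, CDH1 at 405 to 585, EPCAM at 106 to 180 and TP63 at 68.2 to 112 CPM. Of the other squamous markers read, SFN was at 121 to 174 CPM and KRT5 at 9.55 to 13.3 CPM. KRT6A went from 27.8 and 45.6 CPM in 2a and 2b to 6.94 on day 5. KRT14 was at 3.70 to 5.85 CPM, DSG3 did not exceed 1.52 CPM and PKP1 did not exceed 0.805 CPM. CPM is the usual unit of counts scaled to a common library total, here after TMM normalisation.

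By the quasi-likelihood test of edgeR, with p-values adjusted after Benjamini and Hochberg, no gene of 18780 (0%) passed an adjusted p under 0.05 for days 3 to 5 against early when the 5 cetuximab libraries were fitted alone. The smallest adjusted p was 0.113. At an unadjusted p under 0.05 there were 4549 genes (24.2%), of which 2745 were higher and 1804 lower on days 3 to 5. DESeq2 on the same libraries called 1048 genes higher (5.58%) and 587 lower (3.13%), and edgeR after removal of the GC trend of each library called 300 higher (1.92%) and 239 lower (1.53%) of 15650. Without day 3 the edgeR count was 6101. Day 3 was then separated from days 4 and 5 in a fit of 10 SCC6 libraries, in which the spread came from all of them. In this fit no gene of 20337 (0%) passed for day 3 against early, with 1077 (5.3%) at an unadjusted p under 0.05 and 2 by DESeq2. For days 4 and 5 against early, 1365 genes were higher (6.71%) and 1290 lower (6.34%). For days 4 and 5 against day 3, edgeR called none (0%), 2462 genes (12.1%) had an unadjusted p under 0.05, and DESeq2 called 42. The count for days 4 and 5 rested on single libraries, since it went from 2655 to 0 without 2b, to 4 without day 5, to 128 without day 4 and to 1512 without 2a. It was 5608 without PBS day 1, 5642 without PBS day 2 and 1237 without PBS day 4. In the text that follows, rose and fell are used only for genes that passed in the comparison of days 4 and 5 with early, and all other values are levels.

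Because no gene passed for day 3, day 3 was also described by level with no test. Of 9830 genes whose log2 CPM averaged 3 or more in these libraries, 7 (0.0712%) stood at least 1 on the log2 scale above both early libraries on each of days 3, 4 and 5, and 1 (0.0102%) stood as far below. In the PBS libraries, days 3 to 5 against days 1 and 2 gave 1 gene (0.0104%) and 0 genes (0%) of 9636 by the same rule. The 7 genes code for an insulin-like growth factor binding protein, a myosin light chain, a Golgi protein, a matrix glycoprotein, a glucose transporter, a sodium channel and thrombomodulin, which binds thrombin at the vessel wall. In 7 of 7, 2a lay between 2b and day 3. Set against 2b alone, without 2a, the rule gave 103 rises and 13 falls by day 3.

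IGFBP5, which binds insulin-like growth factors outside the cell, had the widest spread. It stood at 4.89 CPM in 2b, 26.7 in 2a, 98.4 on day 3, 178 on day 4 and 369 on day 5, and at 2.08 to 3.75 CPM with PBS on days 1 to 5. All 3 later libraries lay above both early ones. The log2 fold change was 2.62 ± 0.67 (SE) on day 3 (unadjusted p = 0.00258, adjusted p = 0.930 by edgeR). IGFBP5 (chr2:217536828-217560272 on GRCh37, minus strand) rose by days 4 and 5, with a log2 fold change of 4.08 ± 0.63 (SE, adjusted p = 0.011 by edgeR).

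TNC, the gene of tenascin C, a glycoprotein of the extracellular matrix that appears in wounds and tumours, was at 28.04 CPM in 2b, 59.9 in 2a, 123 on day 3, 205 on day 4 and 307 on day 5. With PBS it stayed between 19.8 and 23.3 CPM on days 1 to 5. TNC (chr9:117781854-117880486, minus strand) had a log2 fold change of 1.47 ± 0.34 (SE) on day 3 and of 2.52 ± 0.31 (SE) on days 4 and 5 (adjusted p = 0.00787 by edgeR). Each later library thus lay above the one before it, and the lowest cetuximab library lay above the PBS libraries of days 1 to 5.

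MYL7, a myosin light chain best known from the atrial muscle of the heart, was at 1.75 CPM in 2b, 5.88 in 2a, 17.0 on day 3, 27.6 on day 4 and 54.1 on day 5. With PBS MYL7 did not exceed 0.143 CPM. Its log2 fold change was 2.12 on day 3 and 3.38 ± 0.52 (SE, adjusted p = 0.011 by edgeR) on days 4 and 5. MYL7 (chr7:44178463-44180931, minus strand) is one of the contractile genes, of which more are given below.

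SLC2A3, the glucose transporter GLUT3, was at 12.9 CPM in 2b, 25.3 in 2a, 60.1 on day 3, 80.9 on day 4 and 113 on day 5. FAM198B, which codes for a Golgi protein, was at 2.53 CPM in 2b, 2.87 in 2a, 8.46 on day 3, 16.7 on day 4 and 30.1 on day 5. Both rose by days 4 and 5, with log2 fold changes of 2.31 (SLC2A3) and 3.09 (FAM198B). Both were also higher in the later PBS libraries, with log2 fold changes of 1.65 (SLC2A3) and 1.68 (FAM198B) for days 3 to 5 against days 1 and 2 that did not pass. SLC2A3 lies at chr12:8071826-8171603 and FAM198B at chr4:159045626-159094470, both on the minus strand.

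SCN9A and THBD reached their later level on day 3. SCN9A, a voltage-gated sodium channel, was at 3.51 CPM in 2b and 7.53 in 2a, and at 17.1, 15.2 and 24.6 CPM on days 3, 4 and 5. THBD, thrombomodulin, was at 4.28 CPM in 2b and 8.66 in 2a, and at 18.6, 17.8 and 20.5 CPM. Days 4 and 5 differed from day 3 by 0.21 (SCN9A) and 0.03 (THBD) on the log2 scale, and both rose against early, by 1.82 and 1.53. THBD (chr20:23026270-23030309, minus strand) no longer met the rule of 1 on the log2 scale after the GC trend was removed, whereas SCN9A (chr2:167051695-167232511, minus strand) and the other 5 did.

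The 1 gene that was lower by day 3 was SERPINB2, the plasminogen activator inhibitor PAI-2. SERPINB2 was at 165 CPM in 2b and 93.9 in 2a, and at 35.9, 6.85 and 3.20 CPM on days 3, 4 and 5. Its log2 fold change was -1.87 ± 0.71 (SE) on day 3 and -4.72 ± 0.62 (SE, adjusted p = 0.00934 by edgeR) on days 4 and 5. With PBS SERPINB2 was higher in every library, at 1540, 1742, 1166, 507 and 307 CPM on days 1 to 5, and it also went down with time. The change under cetuximab minus that under PBS was -1.83 on the log2 scale (unadjusted p = 0.137, adjusted p = 0.328 by edgeR), so a difference between the treatments in this decline was not shown. SERPINB2 lies at chr18:61538926-61571122 on the plus strand.

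**Figure D1:**
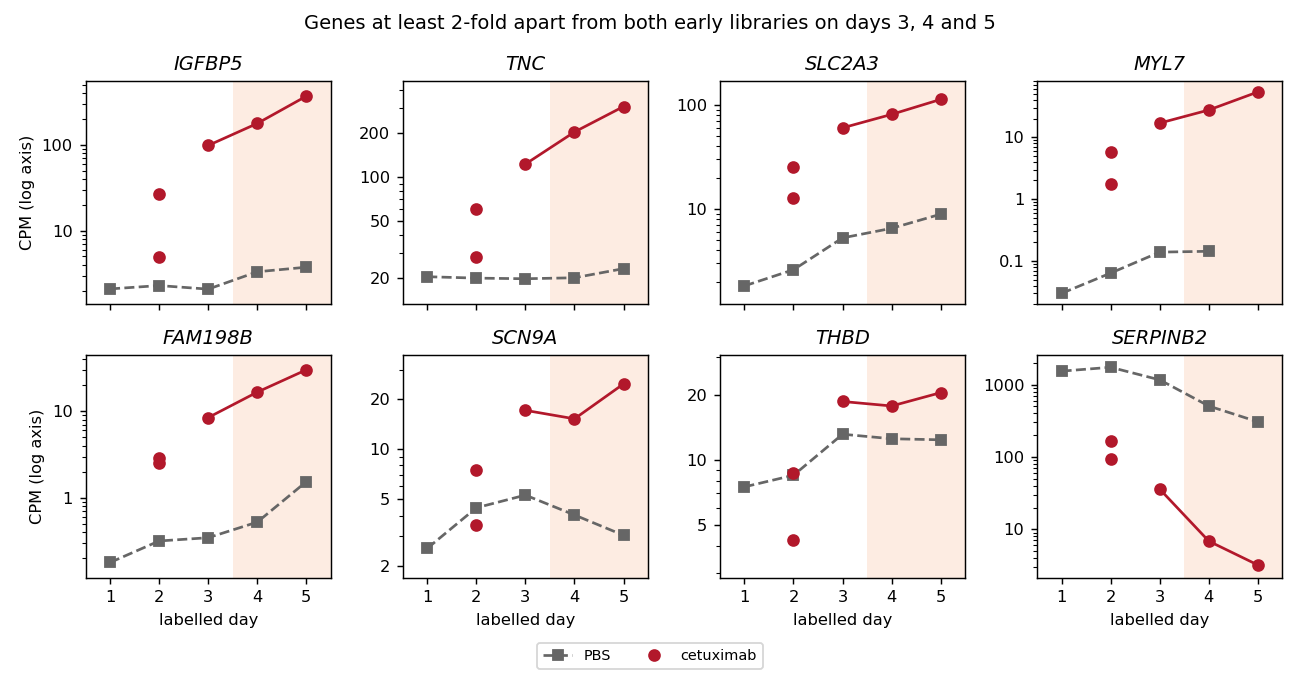
Levels in CPM (log axis) of the 8 genes that were at least 1 on the log2 scale apart from both early libraries on days 3, 4 and 5, against the labelled day, with 1 point per library. Red points are cetuximab (both early libraries stand at day 2, and the line joins days 3 to 5), grey squares are PBS, the shaded days 4 and 5 were on another flow cell for cetuximab only, and MYL7 had no count with PBS on day 5. IGFBP5, TNC and MYL7 lie above PBS of days 1 to 5 in all 5 cetuximab libraries, while SERPINB2 goes down under both treatments.

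Gene groups gave a second view of day 3, since the groups do not depend on a threshold for single genes. Over all 20337 genes, day 3 lay above both early libraries for 38.7% and below both for 34.3%, and all of days 3 to 5 lay above both for 22.6% and below both for 19.2%. Of the same genes 6.71% rose and 6.34% fell by days 4 and 5, the shares beside which the counts of each group stand. Of 40 mitosis and G2/M genes, which drive chromosome segregation and cytokinesis, 40 were below both early libraries on day 3 and 36 on all of days 3 to 5. On the log2 scale, their median difference from the early mean was -0.334 on day 3, -0.545 on day 4 and -0.739 on day 5, with 2b at 0.080 and 2a at -0.080. AURKA, a kinase of the spindle poles, was at 137 and 170 CPM in 2a and 2b and at 102, 81.2 and 60.2 CPM on days 3, 4 and 5. MKI67, the proliferation marker Ki-67, was at 473 and 545 CPM and then at 369, 342 and 286 CPM. By days 4 and 5, 29 of the 40 fell and none rose, and 27 of the 29 also passed with the GC trend removed, where 8.73% of 16434 genes were higher and 8.86% lower. The log2 fold changes were -1.41 for CENPE, a kinetochore motor, -1.15 for AURKA, -0.85 for CCNB1, cyclin B1, and -0.73 for MKI67. In PBS the median of the 40 was 0.041 for days 3 to 5 against days 1 and 2. None of the 20337 genes was called in that comparison, so a count of calls says nothing about a group there.

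DNA replication genes moved less evenly. Of 40 S phase genes, 33 were below both early libraries on day 3, 21 on all of days 3 to 5, and 9 fell and 1 rose by days 4 and 5. POLE2, a subunit of the leading strand polymerase, was at 13.3 and 16.8 CPM in 2a and 2b and at 9.41, 7.07 and 7.87 CPM on days 3, 4 and 5. RRM2, the small subunit of ribonucleotide reductase, was at 250 and 318 CPM and then at 217, 176 and 179 CPM. The riser was E2F1, a transcription factor of S phase entry, at 41.4, 36.9, 40.8, 78.0 and 71.7 CPM in 2a, 2b and on days 3, 4 and 5. E2F1 did not pass with the GC trend removed. Of 15 genes of G1 arrest, 3 rose, CDKN1C among them (log2 fold change 1.35), and 3 fell. The 3 that fell passed with the GC trend removed as well, and the 3 that rose did not (CDKN1C 0.64, adjusted p = 0.189 by edgeR). Of 20 replication-dependent histone genes, which poly(A) selection largely leaves out, 0 passed in either direction.

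The promoters of the mitotic genes were looked up in RefSeq (GRCh38.p14, 250 bases before the start), since the CHR element TTTGAA is a known element of G2/M genes. Of 34 mitosis promoters with an entry, 18 (52.9%) held it on either strand, against 8.85% of 11848 promoters of genes tested. A match is a description of the sequence and not of binding. As the element is known from such genes, a high share describes the list and not these libraries. The promoters of DLGAP5, a spindle protein, and HMMR, a hyaluronan receptor that also binds the spindle, are shown because each holds 2 copies, with the copies in capitals at -138 to -133 and -109 to -104 in DLGAP5 and at -28 to -23 and -22 to -17 in HMMR, where -1 is the last base before the start. DLGAP5 fell from 109 and 125 CPM in 2a and 2b to 80.2, 65.2 and 53.7 CPM on days 3, 4 and 5, and HMMR from 44.1 and 53.6 CPM to 34.6, 24.5 and 20.0 CPM.
DLGAP5 (chr14:55191586-55191835, minus strand): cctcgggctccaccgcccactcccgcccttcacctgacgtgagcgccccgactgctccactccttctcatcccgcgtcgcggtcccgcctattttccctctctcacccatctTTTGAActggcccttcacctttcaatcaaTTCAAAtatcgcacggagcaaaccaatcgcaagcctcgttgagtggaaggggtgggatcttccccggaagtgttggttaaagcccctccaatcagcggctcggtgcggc
HMMR (chr5:163460382-163460631, plus strand): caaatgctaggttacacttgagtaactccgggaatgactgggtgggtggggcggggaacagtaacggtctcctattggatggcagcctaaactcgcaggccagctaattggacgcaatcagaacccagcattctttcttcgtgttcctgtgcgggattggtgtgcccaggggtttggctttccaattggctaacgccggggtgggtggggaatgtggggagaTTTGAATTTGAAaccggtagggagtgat

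The genes of the integrated stress response lay on the other side by day 3. ATF4 is a transcription factor that is translated when amino acids are short or the endoplasmic reticulum is under stress. All 29 ATF4 and ER stress genes were above both early libraries on day 3, and 24 were on all of days 3 to 5. On the log2 scale, their median was 0.527 on day 3, 0.445 on day 4 and 0.427 on day 5, with 2a at 0.239 and 2b at -0.239. DDIT3, the stress factor CHOP, was at 33.8 and 19.8 CPM in 2a and 2b and at 53.9, 47.0 and 52.1 CPM on days 3, 4 and 5. TRIB3, a pseudokinase that ATF4 induces, was at 29.9 and 16.1 CPM and then at 49.0, 52.9 and 43.1 CPM. Of the 29, 7 rose by days 4 and 5 and none fell, among them NUPR1 (1.83), TRIB3 (1.03), PHGDH (0.98), the first enzyme of serine synthesis, and DDIT3 (0.86). With the GC trend removed 13 were called higher, 5 of the 7 among them, and TRIB3 was not. The PBS libraries also had a positive median, 0.302 for days 3 to 5 against days 1 and 2, where no gene of any group was called. The difference between 2a and 2b had a median of 0.478, close in size to that of day 3 against early (0.506).

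**Figure D2:**
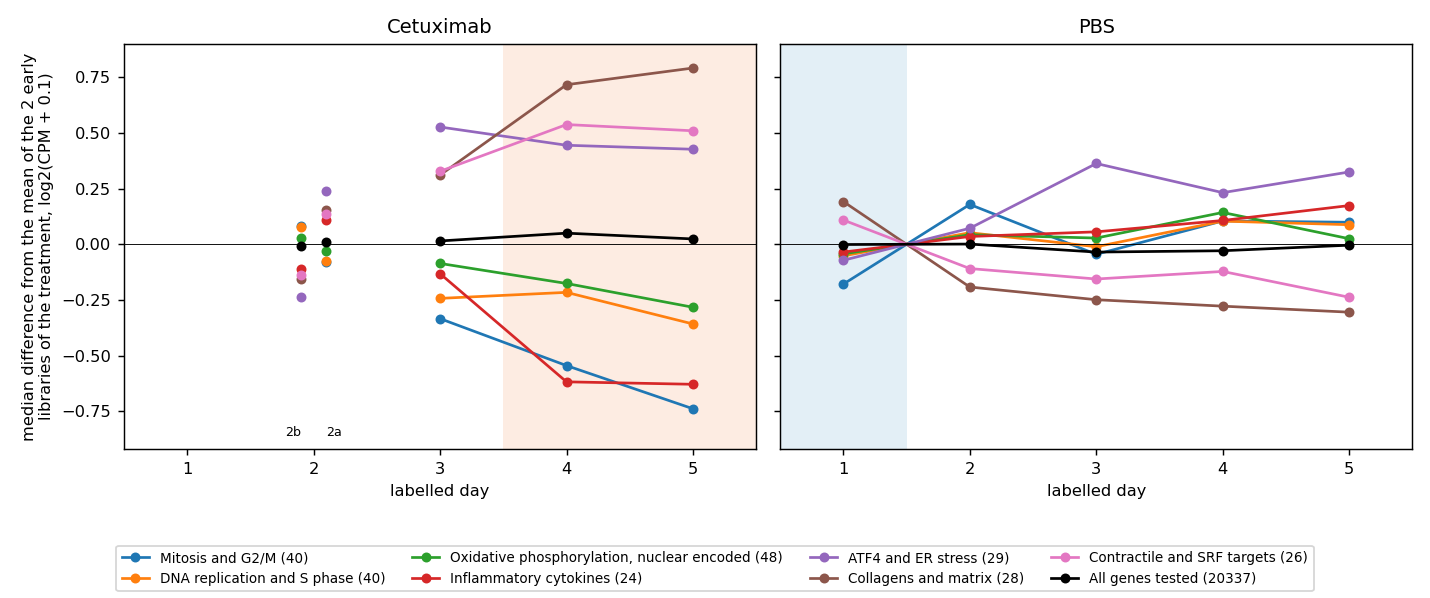
Median difference of 7 gene groups and of all 20337 genes from the mean of the early libraries of the same treatment, on the log2(CPM + 0.1) scale, by labelled day, with the number of genes in brackets. The left panel shows cetuximab with 2b and 2a side by side at day 2 and days 4 and 5 on another flow cell (shaded), and the right panel PBS with days 1 and 2 as early and day 1 on another flow cell (shaded). Mitosis genes reach -0.334 on day 3 and -0.739 on day 5 under cetuximab, and the cytokines drop between day 3 (-0.132) and day 4 (-0.618).

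Genes that stayed near their early level on day 3 and moved further on days 4 and 5 were taken by the same kind of rule. This class is called days 4 and 5 only. Days 4 and 5 had to be at least 1 on the log2 scale beyond both early libraries and day 3, with day 3 within 0.5 of the early mean. There were 4 falls (0.0407%) and 31 rises (0.315%), against 2 (0.0208%) and 1 (0.0104%) in PBS. In 27 of the 31 rises and 2 of the 4 falls, 2a lay between 2b and day 3. The median day 3 difference from the early mean was 0.25 for the rises and -0.227 for the falls. The median of 2a minus 2b was 0.341 for the rises and -0.047 for the falls. For the rises, the day 3 difference is thus not free of the gap between the early libraries. Without day 5 there were 8 falls and 151 rises, and without day 4 there were 16 falls. The test of the class, which asks for days 4 and 5 to pass against both early and day 3, gave 0 genes with edgeR and 29 with DESeq2, and the matching test of a change by day 3 gave 0 and 1.

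Of the falls, AREG, F3 and RP11-386G11.10 are described here. AREG (chr4:75310853-75320722, plus strand), an EGFR ligand, was at 71.0 CPM in 2a, 81.3 in 2b and 56.6 on day 3, then at 22.2 on day 4 and 13.9 on day 5. Its log2 fold change was -0.44 ± 0.27 (SE) on day 3 and -2.11 ± 0.23 (SE, adjusted p = 0.00584 by edgeR) on days 4 and 5, and PBS of days 1 to 5 held AREG at 341 to 486 CPM. F3 (chr1:94994729-95007315, minus strand), tissue factor, which starts coagulation, was at 1794 and 1771 CPM in 2a and 2b and at 1579, 758 and 640 CPM on days 3, 4 and 5. In both, day 3 lay below both early libraries, but closer to them than to days 4 and 5. RP11-386G11.10 was at 190, 203, 167, 47.2 and 60.8 CPM in 2a, 2b and on days 3, 4 and 5 and did not pass (adjusted p = 0.077 by edgeR). With the GC trend removed AREG, PLAUR and GAL met the rule, and F3 no longer did.

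The 31 rises had a median exon GC content of 62.9%. On days 4 and 5 the difference from early went up with GC content over all genes, and on day 3 it did so less. With the GC trend removed, 2 of the 31 remained (0.0206% of 9705 genes), PBXIP1 and WBP1, and the share of falls was 0.0412%. PBXIP1 was at 18.5 and 11.9 CPM in 2a and 2b, 19.2 on day 3, 57.0 on day 4 and 52.8 on day 5. WBP1, a WW domain binding protein, was at 8.50, 6.55, 9.37, 25.9 and 23.2 CPM in the same order. The rises that the rule names by size were these 2 with FIBCD1 (log2 fold change 1.88), MEGF6 (1.87), MCRIP1 (1.84) and GAA (1.80), the last of them the lysosomal enzyme that breaks down glycogen. COL7A1, the collagen of anchoring fibrils, belonged to the class by level (52.1, 55.4, 46.1, 140 and 114 CPM) but did not pass (adjusted p = 0.129 by edgeR). With the GC trend removed from the 5 PBS libraries, the classes held 0 genes (0%), except for 1 rise by day 3 (0.0105%), and in cetuximab the rises by day 3 were 6 (0.0618%) and the falls 1 (0.0103%).

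**Figure D3:**
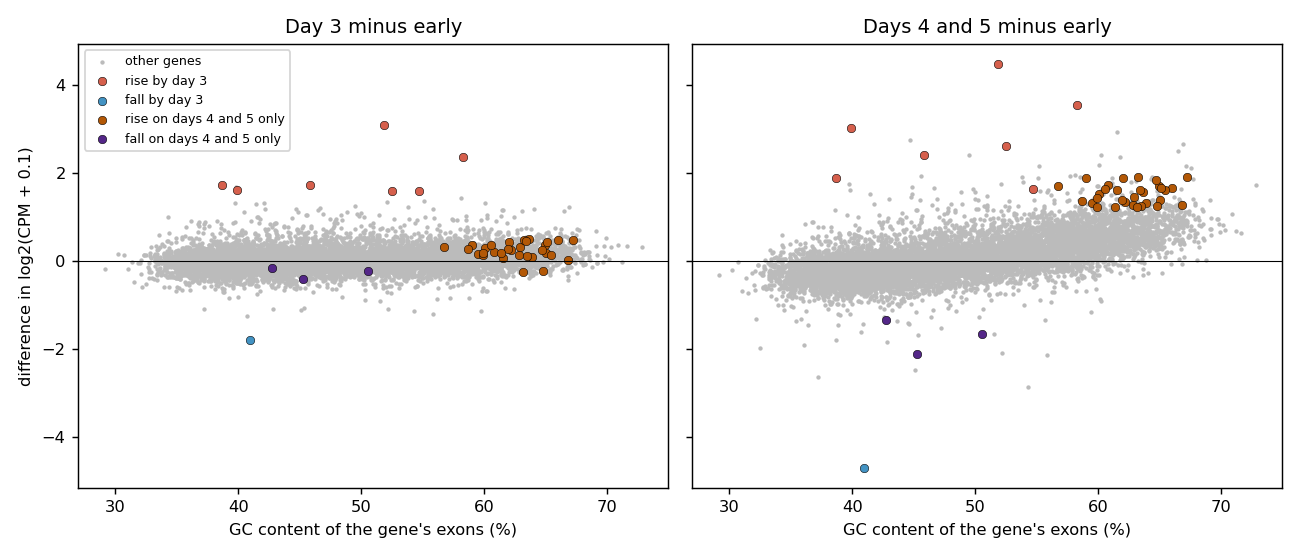
Difference from the early mean in log2(CPM + 0.1) against exon GC content in percent, with 1 point per gene whose log2 CPM averaged 3 or more, for day 3 (left) and days 4 and 5 (right). Coloured points are the 4 classes by level. On days 4 and 5 the cloud tilts upward with GC content, more than on day 3, and the 31 rises on days 4 and 5 only (orange) lie at its GC-rich end, with a median of 62.9%.

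EGFR, the target of the drug, was at 945 and 904 CPM in 2a and 2b and at 1025, 903 and 838 CPM on days 3, 4 and 5, with a log2 fold change of -0.11 ± 0.11 (SE, adjusted p = 0.51 by edgeR). ERBB2, its partner receptor HER2, was at 72.0, 62.4, 68.6, 126 and 113 CPM in the same order and rose (0.80 ± 0.21 SE). Of 20 EGFR family receptors, ligands and inhibitors tested, 4 rose and 4 fell, and the same counts were called with and without the GC trend. The 4 that fell were all ligands. EREG was at 184 and 192 CPM in 2a and 2b and at 118, 61.0 and 40.5 CPM on days 3, 4 and 5, and TGFA was at 146 and 165 CPM and then at 115, 64.1 and 52.7 CPM. Day 3 already lay below both early libraries for EREG, TGFA, AREG and EPGN. The log2 fold changes on days 4 and 5 were -1.92 for EREG, -1.76 for EPGN, -1.44 for TGFA and -2.11 for AREG. HBEGF, another ligand, did not share this course, at 109, 62.0, 113, 88.5 and 88.8 CPM (0.03, adjusted p = 0.943 by edgeR). The inhibitors LRIG3 (0.51) and SOCS3 (1.04) and the ubiquitin ligase RNF41 (0.81) rose.

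Genes that report ERK output split. Of 36 tested, 4 rose and 8 fell, and 3 rose and 12 fell with the GC trend removed. In PBS the group's median was -0.232 for days 3 to 5 against days 1 and 2. EGR1, an immediate early transcription factor, was at 14.7 and 10.6 CPM in 2a and 2b, 13.4 on day 3, and 7.36 and 6.05 on days 4 and 5, against 189 to 220 CPM with PBS on days 1 to 5. HMGA2, a chromatin protein of growing cells, was at 119 and 164 CPM and then at 85.1, 55.7 and 45.5 CPM. With PBS HMGA2 also went down, from 421 CPM on day 1 to 176 on day 5. Its change under cetuximab minus that under PBS was -0.41 on the log2 scale. PHLDA1, a pleckstrin homology protein, fell by 0.86 on the log2 scale. ETV5, an ETS factor that ERK induces, went the other way, at 21.8, 11.6, 32.7, 34.9 and 36.5 CPM, and rose by a log2 fold change of 1.07. ETV5 also went up with PBS, from 25.7 CPM on day 1 to 46.2 on day 5, and cetuximab minus PBS was 0.41. DUSP6, the ERK phosphatase, was at 9.55 to 12.03 CPM in all 5 libraries and did not pass, against 33.5 to 48.4 CPM with PBS on days 1 to 5.

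Among the inflammatory cytokines, falls outnumbered rises. Of 24 tested, 10 fell and 1 rose, CSF1 (1.01), and all 10 that fell also passed with the GC trend removed, while CSF1 did not. IL1A (chr2:113531502-113542070, minus strand), interleukin 1 alpha, was at 80.8 and 75.6 CPM in 2a and 2b and at 51.1, 25.1 and 20.1 CPM on days 3, 4 and 5. Its log2 fold change was -1.82 ± 0.17 (SE, adjusted p = 0.00388 by edgeR). IL1B was at 44.5 and 37.2 CPM, then at 27.1, 16.8 and 11.9 CPM. CXCL8, interleukin 8, which draws neutrophils, was at 263 and 190 CPM, then at 154, 66.0 and 48.4 CPM, with a log2 fold change of -2.01. For these 3 genes day 3 lay below both early libraries, and days 4 and 5 below day 3. PTGS2, the prostaglandin synthase COX-2, changed on days 4 and 5, at 420, 393, 372, 172 and 209 CPM in 2a, 2b and on days 3, 4 and 5. The others that fell were IL1RN, IL6, CXCL2, CXCL3, TNFAIP3 and IL18. The group's median log2 fold change in edgeR was -1.01 on days 4 and 5 under cetuximab and 0.067 in PBS on days 3 to 5. As log2(CPM + 0.1), which shrinks the change of low genes, the median was -0.618 on day 4 and -0.629 on day 5.

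**Figure D4:**
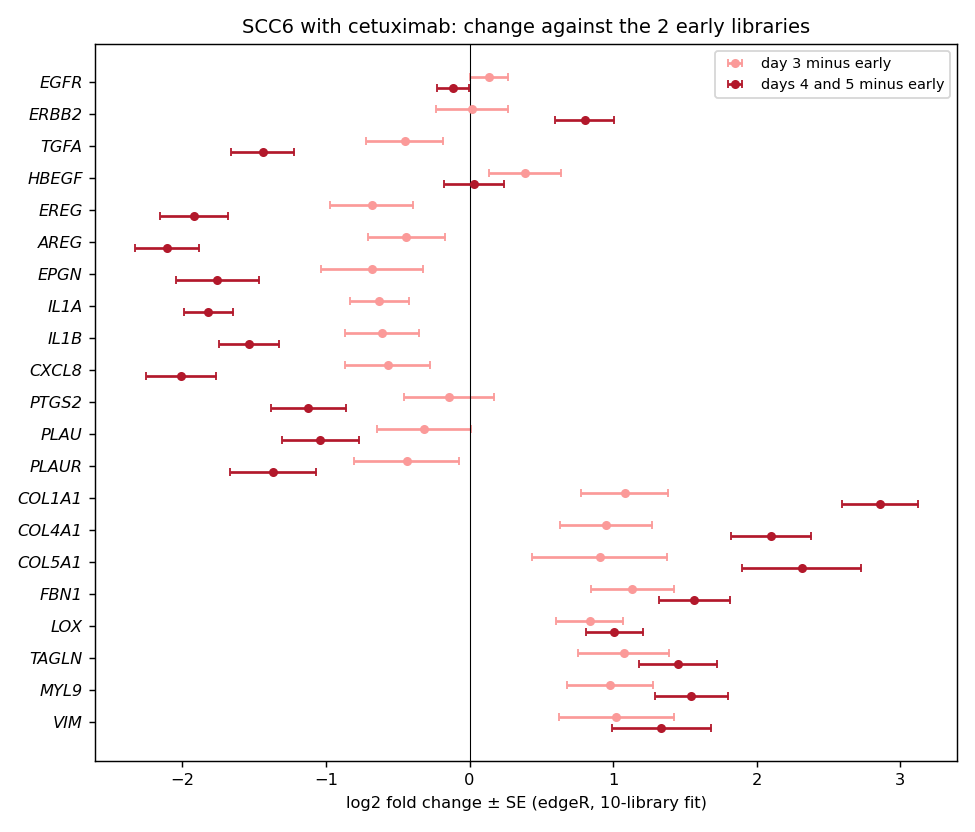
Log2 fold change ± SE against the 2 early libraries for 21 genes of the EGFR family, cytokines, proteases, matrix and contractile groups, from the 10-library edgeR fit. Light points are day 3 (1 library) and dark points days 4 and 5 (2 libraries). The ligands and cytokines lie at or left of -1 on days 4 and 5 except HBEGF (0.03), the matrix genes lie to the right, with COL1A1 at 2.86, and FBN1 and LOX have most of their change on day 3.

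Collagen and matrix genes gave rises and no fall. Of 28 tested, 14 rose and none fell, 12 of the 14 also without the GC trend, and 21 of the 28 were above both early libraries on day 3. COL1A1 (chr17:48261462-48278993, minus strand), a chain of type I collagen, was at 12.4 and 7.07 CPM in 2a and 2b, 20.8 on day 3, 63.4 on day 4 and 80.5 on day 5 (2.86 ± 0.27 SE, adjusted p = 0.00388 by edgeR). The basement membrane collagen COL4A1 was at 221, 140, 351, 689 and 882 CPM and COL4A2 at 251, 149, 351, 964 and 1026 CPM in the same order. COL5A1 was at 192, 108, 283, 748 and 765 CPM. For each of these 4 genes all 3 later libraries lay above both early ones. FBN1, fibrillin 1, and LOX, which cross-links collagen, were near their later level on day 3, at 81.7 against 101 and 122 CPM for FBN1 and at 48.1 against 50.1 and 59.1 CPM for LOX. COL3A1 was at 0.565, 0.144, 1.57, 6.23 and 16.2 CPM. In PBS the group's median was -0.432. PBS day 1 was on another flow cell and had a higher GC slope than PBS days 2 to 5, so this median is not free of the GC trend.

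Type I and III collagen are also markers of fibroblasts, so the fibroblast list was read as a whole. The 10 markers summed to 15.3 and 9.17 CPM in 2a and 2b, and to 25.3, 77.4 and 105 CPM on days 3, 4 and 5, and to 3.18 to 6.53 CPM with PBS. Of 5 that could be tested 3 rose, COL1A1, COL3A1 and PDGFRB. Of the others, FAP was at 0.357 to 0.919 CPM and COL1A2 at no more than 0.316 CPM in the 5 libraries. DCN, LUM and PDGFRA were at no more than 0.196 CPM, POSTN at no more than 0.0951 CPM and THY1 at no more than 0.0131 CPM. In bulk RNA, fewer cells of a type and less RNA per cell cannot be told apart. Of the 10 leukocyte markers 2 could be tested. CSF1R rose (0.79 and 0.80 to 3.48 CPM on day 5), whereas CD68 was at 3.84 and 6.49 CPM in 2a and 2b and at 4.23, 3.51 and 3.53 CPM on days 3, 4 and 5, and was called lower only with the GC trend removed. PTPRC was at no more than 0.143 CPM. Of 4 endothelial markers tested none passed.

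A part of the contractile genes and targets of SRF, the serum response factor, rose, as MYL7 did. Of 26 tested, 7 rose and 2 fell, ACTB and TPM4, and the same 7 and 2 also passed with the GC trend removed. MYL9, the regulatory light chain of smooth muscle myosin, was at 66.7 and 38.6 CPM in 2a and 2b and at 105, 138 and 174 CPM on days 3, 4 and 5. TAGLN, transgelin, was at 176 and 84.8 CPM, then at 277, 327 and 400 CPM. ACTG2, smooth muscle actin, was at 2.85 and 1.32 CPM, then at 9.08, 7.83 and 17.5 CPM. For these 3 genes, all later libraries lay above the early pair, and PBS of days 1 to 5 did not exceed 16.1 CPM for TAGLN, 7.75 for MYL9 and 0.502 for ACTG2. TPM1 (0.62), CNN1 (1.90) and LMOD1 (3.93) completed the 7. The last 2 were low, with CNN1 at 1.06, 0.345, 1.71, 2.33 and 3.14 CPM in 2a, 2b and on days 3, 4 and 5. LMOD1 was at 0.226, 0.0287, 0.761, 1.32 and 2.98 CPM in the same order.

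SRF binds the CArG box, and the promoters were read for it. Of 20 contractile promoters with an entry, 7 (35%) held a CArG box, against 0.996% of the 11848 promoters. The list takes in targets of SRF, so a high share was in part built in and is not a result of these libraries. Of these 7 genes MYL7 and ACTG2 rose, TPM4 fell, and CNN2, FLNA, FHL2 and SRF were not called. The TEAD element GGAATG was in 7 of the same 20 (35%) against 9.6%. The MYL7 promoter is shown because this gene was already apart on day 3, with its CArG box in capitals at -61 to -52.
MYL7 (chr7:44141333-44141582, minus strand): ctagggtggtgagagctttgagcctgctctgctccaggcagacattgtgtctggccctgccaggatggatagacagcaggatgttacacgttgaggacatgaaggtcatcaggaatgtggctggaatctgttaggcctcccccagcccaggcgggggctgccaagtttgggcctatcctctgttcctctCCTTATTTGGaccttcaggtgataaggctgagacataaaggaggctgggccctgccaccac

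The proteases of the matrix moved in both directions. Of 20 matrix metalloproteinase and plasminogen genes, 6 rose and 4 fell, and all of them also passed with the GC trend removed. The 4 that fell were MMP1, PLAU, PLAUR and SERPINB2. MMP1, interstitial collagenase, was at 6.13 and 32.8 CPM in 2a and 2b and at 2.66, 1.68 and 1.71 CPM on days 3, 4 and 5. The early pair thus differed more for MMP1 than 2a differed from day 3. PLAU, urokinase, was at 402 and 310 CPM and then at 288, 202 and 152 CPM, and its receptor PLAUR at 64.1 and 71.1 CPM and then at 50.4, 30.2 and 23.2 CPM. MMP2, a gelatinase, was at 110, 90.1, 133, 203 and 210 CPM and MMP14, its membrane-bound activator, at 577, 391, 659, 1344 and 1187 CPM. For both, all 3 later libraries lay above the early pair. TIMP2 (0.74), TIMP3 (0.52) and PLAT (1.79) also rose. In PBS the group's median was -0.716 for days 3 to 5 against days 1 and 2. PLAU went from 1292 CPM on day 1 to 478 CPM on day 5 with PBS, PLAUR from 369 to 116 CPM and PLAT from 5.00 to 30.9 CPM. For PLAU, the change under cetuximab minus that under PBS was 0.02 on the log2 scale.

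The AP-1 site TGANTCA, bound by FOS and JUN, was in 4 of 9 promoters of this group with an entry (44.4%), against 4.57% of all. They were PLAUR and SERPINB2, which fell, and MMP7 and MMP10, which did not. Among the cytokines, 11 of 23 (47.8%) held a kappa B site, against 5.87%, and of the ATF4 group 2 of 25 (8%) held the element TGATGCAA, against 0.481%. The ATF4 list is named for its regulator, so a high share of that element was in part built in. Each share describes a list of genes and not these libraries. In all, 6 motifs were searched on both strands. The promoters of SERPINB2, PLAUR and CXCL8 are shown as those of genes that fell, with the AP-1 site in capitals at -102 to -96, -186 to -180 and -137 to -131. CXCL8 belongs to the cytokines, whose share of AP-1 sites was not counted. A link between the site and the falls was not tested.
SERPINB2 (chr18:63887455-63887704, plus strand): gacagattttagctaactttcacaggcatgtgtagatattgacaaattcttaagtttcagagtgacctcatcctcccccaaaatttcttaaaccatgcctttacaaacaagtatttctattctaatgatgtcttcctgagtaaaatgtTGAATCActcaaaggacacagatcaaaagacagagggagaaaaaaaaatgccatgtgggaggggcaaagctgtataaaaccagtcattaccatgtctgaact
PLAUR (chr19:43670170-43670419, minus strand): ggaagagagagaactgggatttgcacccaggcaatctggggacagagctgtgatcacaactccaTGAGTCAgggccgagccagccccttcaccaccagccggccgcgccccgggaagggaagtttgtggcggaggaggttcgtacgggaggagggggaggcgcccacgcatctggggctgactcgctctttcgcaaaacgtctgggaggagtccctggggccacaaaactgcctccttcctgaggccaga
CXCL8 (chr4:73740319-73740568, plus strand): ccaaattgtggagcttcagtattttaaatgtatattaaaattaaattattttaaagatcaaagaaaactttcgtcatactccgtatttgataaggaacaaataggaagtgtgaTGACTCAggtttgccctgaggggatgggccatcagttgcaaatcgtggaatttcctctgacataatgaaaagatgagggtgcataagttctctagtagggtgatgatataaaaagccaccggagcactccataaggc

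Vimentin and the genes of epithelial-to-mesenchymal transition (EMT) were a subject of the study. VIM (chr10:17270240-17279592, plus strand) was at 222 and 141 CPM in 2a and 2b, and at 372, 435 and 498 CPM on days 3, 4 and 5. VIM rose by days 4 and 5 (1.34 ± 0.34 SE, adjusted p = 0.033 by edgeR), and most of this distance was there on day 3 (1.02 ± 0.40 SE). With PBS it went the other way, at 160, 105, 72.5, 43.0 and 33.3 CPM on days 1 to 5. The change under cetuximab minus that under PBS was 2.64 ± 0.45 (SE, unadjusted p = 0.000107, adjusted p = 0.145 by edgeR). Of 32 EMT genes, 8 rose and 3 fell. FN1, fibronectin, was at 43000, 28670, 58110, 62780 and 67640 CPM in 2a, 2b and on days 3, 4 and 5. SNAI1 (1.12), a repressor of E-cadherin, and SPARC (2.98) rose, and the junction genes OCLN (-1.25), CLDN1 (-0.65) and EPCAM (-0.67) fell. Of these, 7 of the 8 and 2 of the 3 also passed with the GC trend removed, SNAI1 and CLDN1 being the exceptions.

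Other genes that the study named moved in either direction or did not pass. TFAP2A, a transcription factor of epithelial cells, was at 54.5, 57.5, 49.8, 44.1 and 34.4 CPM in 2a, 2b and on days 3, 4 and 5 and fell by 0.54 on the log2 scale (adjusted p = 0.032 by edgeR). TGFBR3, a TGF-beta co-receptor, was at 5.59, 6.64, 4.06, 2.98 and 2.64 CPM and fell by 1.15. VEGFA, the angiogenic factor, was at 165, 112, 209, 227 and 234 CPM and rose by 0.71. AXL (0.49, adjusted p = 0.0545), FGFR1 (0.68, 0.079), MYC (-0.20, 0.408) and IGF1R (-0.23, 0.17) did not pass by edgeR. Of 32 growth factor receptors and related factors, 8 rose and 2 fell, beside 6.71% and 6.34% of all genes. The list was drawn up around genes that the study names. The study's genes rest in part on these same samples, so the count is not independent evidence of a direction. FGFR2 (0.55), IGFBP7 (1.61) and PDGFB (1.10) were among those that rose, and 5 of the 8 also passed with the GC trend removed, with PDGFB and VEGFA not among them.

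Keratinocyte genes did not move as 1 group. Of 30 differentiation genes tested, 5 rose and 2 fell, beside 6.71% and 6.34% of all genes, and the median was -0.069. KLK5, a protease of shedding skin, was at 47.4 and 28.5 CPM in 2a and 2b and at 70.2, 128 and 154 CPM on days 3, 4 and 5. IVL, involucrin, was at 5.72, 3.73, 7.56, 14.1 and 15.0 CPM. GRHL3, a transcription factor of the epidermal barrier, was at 4.12, 7.56, 2.28, 1.05 and 0.706 CPM, and PI3, the elastase inhibitor elafin, at 0.611, 1.61, 0.404, 0.226 and 0.235 CPM. KLK5 and IVL thus lay above both early libraries on all 3 later days, and GRHL3 and PI3 below. KRT80, KLK6 and KLK8 also rose, but KRT80 and KLK6 did not pass with the GC trend removed. Of 22 basal and hemidesmosome genes 2 rose and 3 fell, and of 10 squamous markers 1 rose (KRT17) and 1 fell (EPCAM). KRT17 did not pass with the GC trend removed (0.42, adjusted p = 0.0939 by edgeR). KRT6A did not pass (-2.21, adjusted p = 0.0574 by edgeR) but was called lower with the GC trend removed (-2.535, adjusted p = 0.0252 by edgeR). It was also lower in the later PBS libraries (-2.165 for days 3 to 5 against days 1 and 2), which did not pass.

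Interferon-stimulated genes had 10 rises and 1 fall, DDX58, among 48. IRF9, a subunit of the factor that interferon activates, was at 14.1 and 8.30 CPM in 2a and 2b and at 20.8, 37.2 and 38.4 CPM on days 3, 4 and 5. IFI6, IFI44L and MX1 rose by 2.33, 1.93 and 1.23 on the log2 scale. The early pair itself differed by 1.97, 1.64 and 0.81 for these genes, with 2a higher. IFI6 was at 3.55, 0.833, 5.16, 11.2 and 11.5 CPM in 2a, 2b and on days 3, 4 and 5. The change under cetuximab minus that under PBS was -0.06 for IFI6, 0.15 for IFI44L and -0.24 for MX1. The median of the 48 was 0.392 under cetuximab and 0.454 in the PBS libraries of days 3 to 5, so the group was also higher late in culture without the drug. Of 33 NOTCH and WNT genes 7 rose and 2 fell, beside 6.71% and 6.34% of all genes, so the falls were near that share. WNT5B, a ligand, was at 20.6, 15.7, 26.1, 42.1 and 38.3 CPM, DKK3 rose by 1.62 and TCF7L1 by 1.48 on the log2 scale. DKK1, a secreted WNT inhibitor, was at 132, 169, 124, 67.9 and 48.7 CPM and fell by 1.40 on the log2 scale, and LGR4 fell by 0.54.

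Of metabolic groups, cholesterol and fatty acid synthesis had 9 rises and 2 falls among 33, of which 4 rises and 2 falls also passed with the GC trend removed. Over all genes 6.71% rose and 6.34% fell, so the 2 falls were near that share. FADS2, a fatty acid desaturase, was at 15.2, 10.5, 18.1, 32.2 and 31.3 CPM in 2a, 2b and on days 3, 4 and 5. Of 32 glycolysis and hypoxia genes 4 rose, SLC2A3 and VEGFA among them, and 2 fell, which is again near the share of all genes that fell. Of 48 nuclear-encoded subunits of oxidative phosphorylation, 35 were below both early libraries on day 3, 8 fell by days 4 and 5 and none rose, and 3 of the 8 passed with the GC trend removed. Of 60 cytosolic ribosomal protein genes 3 fell and none rose, and of 15 mitochondrially encoded transcripts 1 fell, beside 6.34% of all genes. After removal of the GC trend 14 of the 60 were called lower, beside 8.86% of all genes.

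Over all genes called higher on days 4 and 5, the median log2 fold change was 1.09, with 0.383 on day 3 and 0.297 between 2a and 2b. Over those called lower, the medians were -0.642, -0.27 and -0.184. In the PBS libraries the same 2 sets had medians of -0.154 and 0.029. PBS on days 3 to 5 against days 1 and 2 gave no call of 20337 (0%) by edgeR, 3985 genes (19.6%) at an unadjusted p under 0.05 and 912 by DESeq2, where PBS day 1 was on another flow cell than PBS days 2 to 5. For the change under cetuximab minus that under PBS, edgeR called none of 19150 genes (0%). Here 4655 (24.3%) had an unadjusted p under 0.05, the smallest adjusted p was 0.145, and DESeq2 called 1320.

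SCC1, a second HNSCC line treated in the same way, gave the closest set of libraries to compare, with its 5 cetuximab libraries on 1 flow cell. No gene of 20522 (0%) passed for the change from early to days 3 to 5 in SCC6 minus that in SCC1 by edgeR, with 3075 (15%) at an unadjusted p under 0.05, a smallest adjusted p of 0.0849 and 481 calls by DESeq2. VIM had a difference of 2.06 (unadjusted p = 0.000122 by edgeR) and TNC one of 2.45. Among genes whose log2 CPM averaged 3 or more in the cetuximab libraries of SCC6, the largest differences by size with SCC6 higher included INHBE (2.94), an activin subunit that ATF4 induces, and MYL7 (2.93). Among the same genes, those with SCC6 lower included KRT6A (-3.15), a keratin of activated epidermis, and SERPINB2 (-3.15). PBS libraries do not enter this comparison. In SCC6 with PBS, KRT6A also went down, from 589 CPM on day 1 to 30.1 on day 5, and INHBE went up, from 1.47 to 5.69 CPM. The change in SCC6 under cetuximab minus that under PBS was 0.32 for KRT6A, 0.18 for INHBE and 2.01 ± 2.34 (SE) for MYL7. That of SERPINB2 is given above. IGFBP5 and LRP3 had next to no counts in SCC1 and are named without a fold change.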

How the data were processed

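RNA was isolated daily and poly(A)-enriched stranded libraries were sequenced as paired reads. The authors inferred transcript abundance with Salmon (version 0.8.2 in the submitters' processing notes) and exported estimated counts per gene symbol with tximport. The deposited values are these estimated counts, not normalised between libraries, for 56470 symbols in 33 libraries, and 63.2% of values are whole numbers. Groups came from the sample titles, and the flow cell from the column names of the table. No column was left unused.

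Rounded counts were tested with edgeR 4.0.16 under R 4.3.3 (filterByExpr, TMM, quasi-likelihood F test, Benjamini-Hochberg over all genes tested, two-sided). DESeq2 1.42.0 was an alternative. Days 3 to 5 were compared with early in the 5 cetuximab libraries, and day 3, days 4 and 5, and PBS were contrasts of a fit of 10 SCC6 libraries (days 1 to 5). In that fit day 3 is 1 library, assumed to vary as the other groups do. Further fits tested the change under cetuximab minus PBS, and SCC6 minus SCC1. Classes by level used log2(CPM + 0.1) with no test. Positions and exon GC content came from GENCODE (GRCh37), which is not known to be the authors' annotation, with 34694 symbols matched directly and 1359 by an older symbol. The GC trend was removed per library with a spline of 5 degrees of freedom. Promoters came from RefSeq, matching 4 of the 7 rises and the 1 fall by day 3, and 24 of the 31 rises and 2 of the 4 falls on days 4 and 5. Genes that share reads with near-identical copies are uncertain, since the splitting of reads between them is not given in the sources used here. The fits were tested on simulated data first.

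Named genes were those the study names, the largest changes of each class by level, the 4 largest differences in each direction between SCC6 and SCC1 (of which some are not reported here), and members of the gene lists. The genes, lists and comparisons were chosen with earlier results of these data known. Of the lists, 4 are cell type markers and were read as checks.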

Additional observations from a re-analysis of the deposited data

How the results depend on the processing

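The number of genes called depended on the test and on single libraries. For days 3 to 5 against early, the count of 0 became 1635 with DESeq2, 3036 with no filter on low counts and 539 with the GC trend removed, and ranged from 0 to 6101 when 1 library was left out. For day 3 against early, 0 became 2 with DESeq2 and 228 with no filter. For days 4 and 5 against early, 2655 became 4426 with no filter, 6037 with the 5 cetuximab libraries alone and 990 when a change of 1 or more on the log2 scale was also asked for, and ranged from 0 to 5642 with 1 library left out. With DESeq2 it was 3981, with the GC trend removed 2891 and with libraries thinned to the lowest depth 2475. For days 4 and 5 against day 3, 0 became 42 with DESeq2, 831 with no filter and 869 with the 5 libraries alone, and ranged from 0 to 370. The class of a tested change by day 3 went from 0 to 1 with DESeq2 and 177 with no filter. The class on days 4 and 5 only went from 0 to 29, 582 and 700 under the same settings in turn (the last with the 5 libraries alone), and ranged from 0 to 307. For PBS, 0 became 912 with DESeq2, 2243 with no filter and 1517 with day 0 added, and ranged from 0 to 4226, the highest without day 2. For cetuximab minus PBS, 0 became 1320 with DESeq2 and 2785 with no filter, and ranged from 0 to 3402, the highest without PBS day 2. For SCC6 minus SCC1, 0 became 481, 659 and 121 with DESeq2, no filter and the GC trend removed, and ranged from 0 to 3016, the highest without SCC6 day 3. An unfiltered fit tests genes of few counts as well. The cause of the other differences was not tested.

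The classes by level (7 and 1 by day 3, 31 and 4 on days 4 and 5 only, rises and falls) became 79, 17, 507 and 81 at a minimum difference of 0.5 and 0, 0, 0 and 0 at 2. With the GC trend removed, a choice made after seeing the data, the 31 became 2. With 1 library left out, also added after seeing the data, rises by day 3 ranged from 7 to 103, falls by day 3 from 1 to 13, rises on days 4 and 5 only from 22 to 151 and falls from 4 to 16.

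Pairing by day was fitted for cetuximab minus PBS, with either early library taken as day 1. With day as a replicate block, 0 genes passed in both fits, as without it.

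Of 128 genes named, 113 had their log2 fold change for days 4 and 5 no longer called without 2b, 112 without day 5 and 82 without day 4, against 11 with the GC trend removed and 3 with DESeq2. Directions turned for genes that were not called. With the GC trend removed these were HBEGF (-0.020) and KRT5 (-0.15), without 2a MYC (0.038, against -0.40 without 2b), and without 2b HBEGF (-0.31, against 0.49 without 2a). Genes of few counts were not detectable at this depth where the filter left them out.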
